A study of Mus musculus with 2 samples.

Results

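Antisense long non-coding RNAs (lncRNAs) of mouse liver were examined in 2 RNA sequencing libraries, 1 for a high fat diet and the other for a normal diet. An lncRNA was a member of this group when its identifier in the deposited table of known lncRNAs had the gene type antisense in the GENCODE M21 annotation, in which such a gene is transcribed across a coding gene from the opposite strand. The table listed 614 lncRNAs, of which 81 were antisense, and 76 of these are described here. The other 5 antisense genes, Gm9968, Gm15713, 4732463B04Rik, Gm16984 and Gm26714, were left out by name. Gene type comes from the annotation and uses no measured value, while the genes left out by name were not selected by gene type. Members were chosen with earlier results of these data known.

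Both samples were wildtype C57BL/6 mice at postnatal week 27. The high fat diet contained 60% fat and was given for 23 weeks. The source is labelled as hepatocyte, the main parenchymal cell of the liver, while the protocol describes whole liver that was frozen and extracted with Trizol, and pooling of animals is not stated. Each diet had 1 library, so differences between the diets carry no replicate check and could not be tested. Of 20 marker genes of liver cell types, the lncRNA table listed 2, Gm12840 of lymphocytes with 46 reads (high fat diet) against 88 (normal diet) and Mir155hg of macrophages with 8 against 2. None of the hepatocyte markers was listed, and the coding markers fall outside a table of lncRNAs, so the labelled cell type could not be checked.

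An antisense RNA can act on the gene across from it in several ways. The act of transcription can interfere with the opposite polymerase, the RNA can pair with the sense transcript and alter its splicing or stability, and it can bring chromatin regulators to the promoter. Many antisense RNAs are made at low levels next to active genes and have no known function. Which of these applies to a given pair cannot be read from RNA levels, and the coding genes were mostly outside the table.

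The 76 antisense lncRNAs lay opposite 74 different coding genes, counting for each only the gene with most shared exon bases, or else shared span. Some had further coding genes on the opposite strand, such as Chchd1 and Fut11 for 6230400D17Rik, which are not counted. The exons of 63 shared bases with exons of the coding gene on the other strand, with a median of 358 shared bases and 16.7% of the lncRNA's exon length. In 48 of them the shared bases included coding sequence, and in 15 they lay only in other exon sequence. The remaining 13 lay within or across the span of the coding gene and shared no exon base with it. Of the 63, 24 overlapped the coding gene head to head (5' ends overlapping), 18 tail to tail (3' ends overlapping), 20 lay inside the gene, and Gm16845 ran around the whole of Ecsit. The median exon length of the group was 1978 bases (539 to 6938) in a median of 3 separate exon blocks, against 1801 bases and 2 blocks over the whole known table. How reads were assigned to strands is not stated in the labels or processing notes. Without that setting, reads over shared exon bases and reads of the coding gene cannot be told apart.

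**Figure D1:**
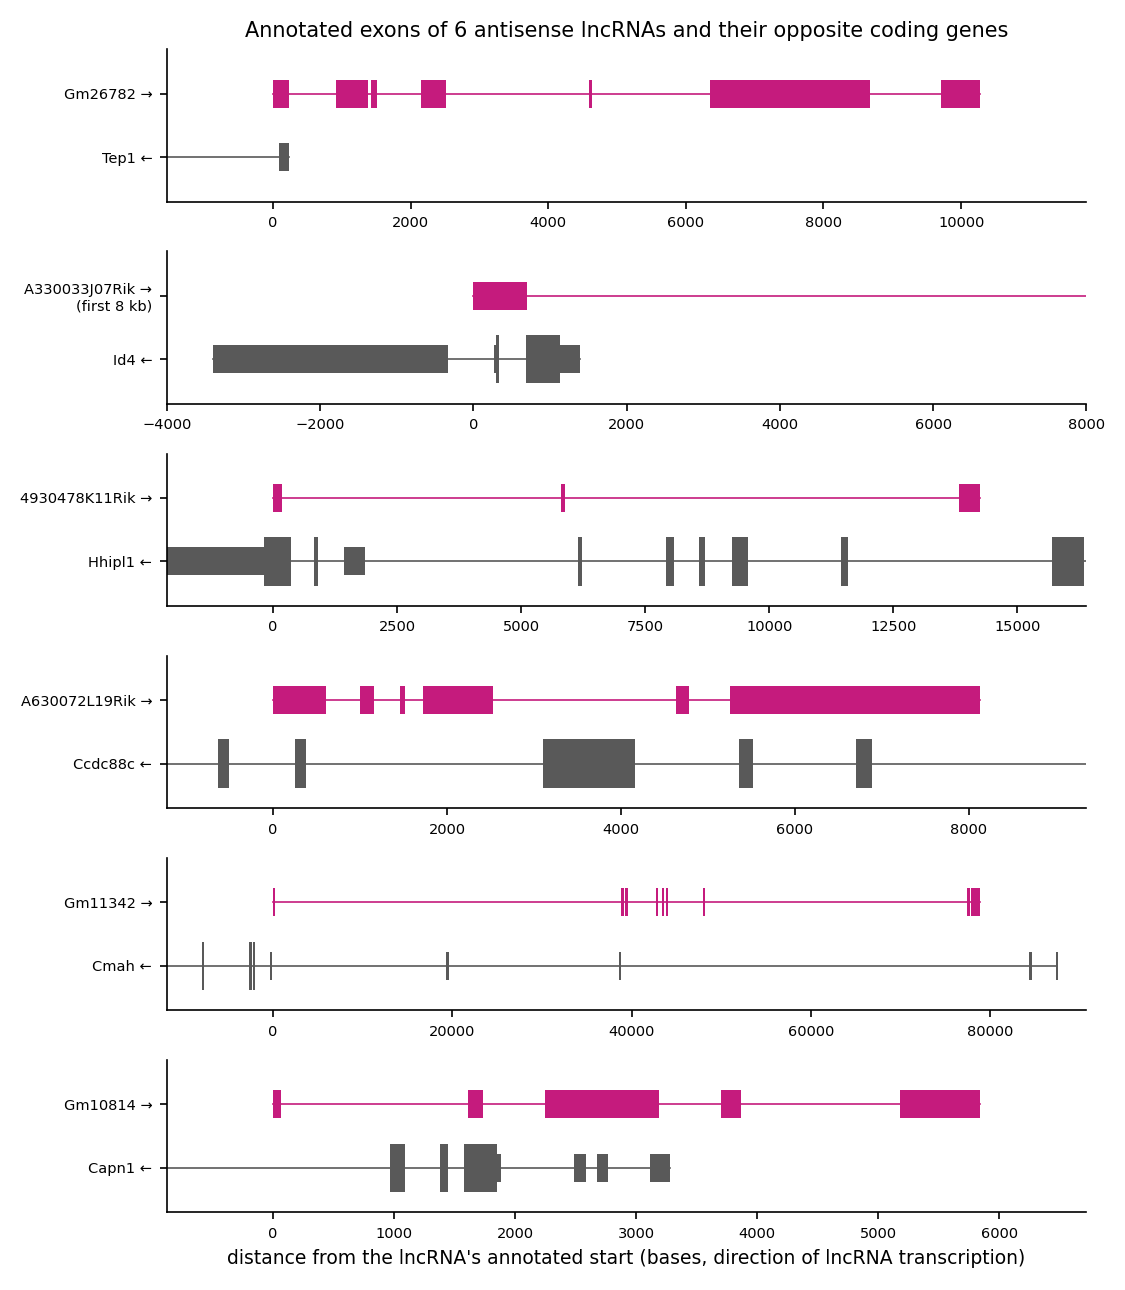
Annotated exons of 6 antisense lncRNAs (magenta, transcribed to the right) and of their opposite coding genes (grey, transcribed to the left), to scale in bases from the lncRNA's annotated start, with taller grey boxes for coding sequence. Gm11342 and Cmah share no exon base, Gm26782 meets only the first exon of Tep1 (144 shared bases), and the plot for A330033J07Rik is limited to the region around its start.

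The sequences below show what such an overlap looks like, for the 3 antisense lncRNAs that differed most between the libraries among those with at least 20 reads in either library and bases opposite coding sequence, for the next in size in each direction, and for Gm17638, which had the most reads in the high fat diet library. Each is the longest stretch of the lncRNA's exon that lies opposite coding sequence, read 5' to 3' along the lncRNA from the GENCODE M21 transcript. Capitals mark bases opposite coding sequence, and lower case marks up to 15 further bases of the same lncRNA exon. In GRCm38 they lie at chr12:108327852-108328030 on the minus strand (opposite Hhipl1), chr13:48262270-48262341, minus (Id4), chr12:100948432-100948646, plus (Ccdc88c), chr19:6014229-6014356, plus (Capn1), chr14:120388885-120388985, minus (Mbnl2), and chr15:77963163-77963340, plus (Eif3d).
4930478K11Rik: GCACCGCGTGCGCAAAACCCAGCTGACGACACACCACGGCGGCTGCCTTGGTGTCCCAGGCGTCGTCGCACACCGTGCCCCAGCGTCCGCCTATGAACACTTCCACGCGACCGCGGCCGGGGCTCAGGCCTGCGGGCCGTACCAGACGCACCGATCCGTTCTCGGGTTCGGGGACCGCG
A330033J07Rik: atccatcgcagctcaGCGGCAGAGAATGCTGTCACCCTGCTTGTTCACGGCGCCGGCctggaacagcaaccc
A630072L19Rik: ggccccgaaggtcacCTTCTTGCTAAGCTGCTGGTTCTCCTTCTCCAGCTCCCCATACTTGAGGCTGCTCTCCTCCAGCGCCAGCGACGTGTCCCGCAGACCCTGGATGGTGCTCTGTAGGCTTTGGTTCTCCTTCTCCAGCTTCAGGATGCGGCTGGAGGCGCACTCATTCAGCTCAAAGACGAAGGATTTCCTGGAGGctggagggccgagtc
Gm10814: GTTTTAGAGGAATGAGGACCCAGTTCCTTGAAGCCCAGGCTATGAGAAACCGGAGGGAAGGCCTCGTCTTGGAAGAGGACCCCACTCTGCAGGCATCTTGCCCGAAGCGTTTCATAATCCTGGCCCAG
Gm26679: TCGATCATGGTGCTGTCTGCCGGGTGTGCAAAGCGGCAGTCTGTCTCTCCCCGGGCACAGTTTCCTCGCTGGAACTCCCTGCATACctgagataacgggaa
Gm17638: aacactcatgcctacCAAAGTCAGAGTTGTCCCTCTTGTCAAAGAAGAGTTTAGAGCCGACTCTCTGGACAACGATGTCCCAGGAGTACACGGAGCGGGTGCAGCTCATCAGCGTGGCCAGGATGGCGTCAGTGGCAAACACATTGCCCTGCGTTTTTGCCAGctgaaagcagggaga

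The stretch of 4930478K11Rik is its complete first exon, 179 bases with a GC content of 70.9%, and all of it lies opposite the coding sequence of Hhipl1. That of A330033J07Rik is 42 bases long (66.7% GC), and that of A630072L19Rik is 185 bases long (57.8% GC). Such a stretch was extracted for 46 of the antisense lncRNAs, with lengths from 19 to 1218 bases and a median of 132.5. For each of the 46, the reverse complement of the stretch was found without a mismatch in a transcript of the opposite gene. Where at least 2 bases of the same exon preceded the capitals, these ended in AC in 25 of 30 lncRNAs, and where they followed, they began with CT in 26 of 30. These are the complements of GT and AG, the dinucleotides that begin and end most introns. The lower-case ends of Gm17638 and A630072L19Rik show both. In such places the lncRNA's exon runs from the coding gene's exon on into its introns, so only part of the lncRNA exon is complementary to the spliced coding transcript.

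Values in the table are CPM, reads of an lncRNA per 1000000 reads of the table, from which whole reads were recovered. The scaling totals, 193538 reads with the high fat diet and 242194 with the normal diet, are those of the lncRNA table, and the depth of the full libraries is not known from them. The 76 antisense lncRNAs held 16624 and 20208 of these reads. This was a share of 8.59% (95% Clopper-Pearson interval 8.41 to 8.77) with the high fat diet and of 8.34% (8.19 to 8.50) with the normal diet. Read pairs are not independent molecules, so this and all other intervals cover counting error only. Reads per lncRNA ran from 2 to 1282 (median 86) and from 2 to 1664 (median 108), and no member was listed without reads in either library.

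Per length, the antisense lncRNAs had a median of 230.3 CPM per kb of exon in the high fat diet library and of 205.01 CPM per kb in the normal diet library. Over the whole known table the medians were 86.6 and 81.7 CPM per kb. With the mean of both libraries the group's median level was 3.11 times that of the other known lncRNAs, and 1.66 times when the comparison was limited to lncRNAs that reached 20 reads in either library. These are descriptions of 2 libraries, and the difference was not tested. Of the 100 lncRNAs with most reads, 18 belonged to the group.

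Of 59 antisense lncRNAs with enough reads to be judged, 3 were higher and 1 was lower with the high fat diet. Gm26782, A330033J07Rik and 4930478K11Rik were the higher ones and A630072L19Rik was the lower one, and all 4 had 32 reads or fewer in each library. A call required a CPM ratio of 2-fold or more and 20 or more reads in the library with the higher value. The share called was 6.78% of the 59 antisense lncRNAs, and over the whole table the same rule called 15.9% of 364 lncRNAs, 7.69% higher and 8.24% lower. The whole table includes the antisense group and also the antisense genes left out by name. Of those left out, Gm9968, Gm15713, 4732463B04Rik and Gm26714 met the same rule, so 6.78% does not describe all antisense lncRNAs listed. The difference in share was not tested. In bulk tissue, fewer cells of a type and less RNA per cell cannot be told apart, which holds for each difference given here. The authors' deposited table marks 2 of the 4, Gm26782 and A630072L19Rik, and no other member of the group.

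Gm26782 (ENSMUSG00000097431, chromosome 14, 50870324 to 50880603 in GRCm38) had 32 reads with the high fat diet and 12 with the normal diet. Its level was 3.34-fold higher with the high fat diet, with a 95% counting interval of 1.24 to 10.41. It lies head to head with Tep1, which encodes a protein component of the telomerase and vault ribonucleoprotein particles, and the annotated starts of the pair lie 236 bases apart. Only 144 bases, 3.52% of its exon length, lie opposite exons of Tep1, and none opposite coding sequence. It also shares near-identical stretches, at least 100 bases at 95% identity or more, with 71 genes elsewhere in the genome. Part of its reads could thus belong to other loci. In the group, 16 members share such stretches with genes elsewhere.

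A330033J07Rik (ENSMUSG00000097622, chromosome 13, 48044231 to 48262623) had 26 reads against 10, a 3.25-fold higher level (1.09 to 11.7). It begins inside Id4, the gene of a helix-loop-helix protein that binds basic helix-loop-helix transcription factors and keeps them off DNA. Of its exon bases, 82 lie opposite Id4 exons, 61 of them opposite coding sequence, and 672 are shared with the lincRNA Gm49291 on its own strand. It was the single antisense lncRNA whose opposite gene was in the list of 73 transcription regulators examined. No gene counted as opposite was in the lists of secreted hepatocyte proteins (71 genes) or lipid and bile acid metabolism (69). The same held for glucose and insulin (29), immunity and interferon (42), translation and RNA (45), and mitochondria and proteostasis (47). Further opposite genes, and those of antisense lncRNAs left out by name, were not looked up. The lists are not complete, and the translation factor genes Eif3d, Ctif and Gspt1, opposite members described below, are not in them. Of a list of 53 named opposite-strand transcripts, the table held Mkln1os, which is annotated as a lincRNA and had 8 reads against 42. That list is not complete either, and lacks other transcripts named in this way that the table held. Among them were Ino80dos (872 reads against 882), Lppos (54 against 86) and Fam120aos (16 against 40). Slmapos2 (12 against 6), Cdiptos (6 against 10) and the member Irx3os (8 against 2) had few reads.

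4930478K11Rik (ENSMUSG00000097847, chromosome 12, 108313779 to 108328030) had 32 reads with the high fat diet against 14, a 2.86-fold higher level (1.11 to 8.22). It lies inside Hhipl1, a gene related to that of the hedgehog-interacting protein, and 179 of its 715 exon bases are the coding-opposite first exon printed above. The level with the high fat diet was 231 CPM per kb, against 80.8 CPM per kb with the normal diet. On the other side, A630072L19Rik (ENSMUSG00000097160, chromosome 12, 100941742 to 100949875) had 4 reads against 26 and was 5.19-fold lower with the high fat diet (1.18 to 47.4). It lies inside Ccdc88c, the gene of the Dishevelled-binding protein Daple, with 472 exon bases opposite coding sequence. The intervals of these 4 exclude equal levels but are wide, and no adjustment was made for how many lncRNAs were examined.

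**Figure D2:**
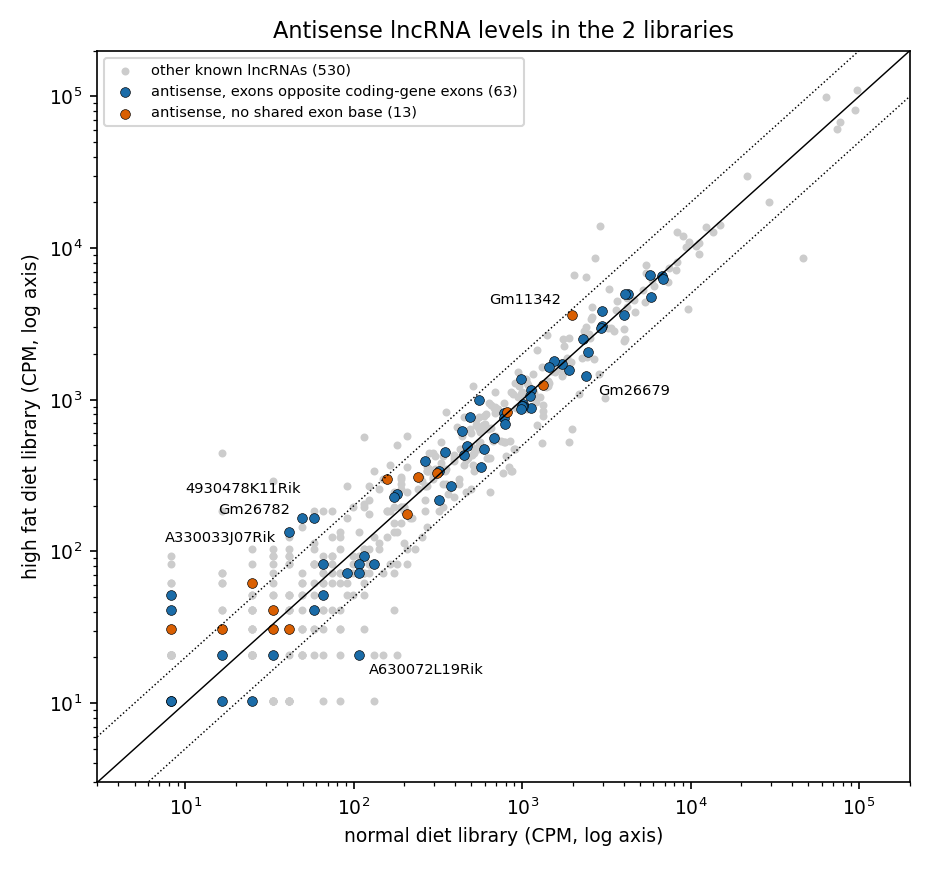
CPM in the normal diet library (x) and in the high fat diet library (y), both on log axes, for 63 antisense lncRNAs with exon overlap (blue), 13 without (orange) and 530 other known lncRNAs with reads in both libraries (grey). The solid line marks equal levels and the dotted lines 2-fold differences, and the 4 called antisense lncRNAs all lie in the lower part of the range, between 20.7 and 165 CPM.

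Just outside the 2-fold line were 9330111N05Rik, Gm11342 and Gm10814. The nearest beyond it were 4930478K11Rik, A330033J07Rik and Gm26782, at 2.86-, 3.25- and 3.34-fold. These are all 3 of the higher calls and are not close to the line. Gm11342 (ENSMUSG00000084788, chromosome 13, 24335937 to 24414803) had 702 reads with the high fat diet and 478 with the normal diet. Its level was 1.84-fold higher with the high fat diet, and the interval of 1.55 to 2.18 is far narrower than those of the called lncRNAs. It lies inside the span of Cmah, which encodes the hydroxylase that turns the sialic acid N-acetylneuraminic acid into N-glycolylneuraminic acid, and shares none of its 1784 exon bases with Cmah exons. The authors' deposited table gives it an adjusted p of 4.608e-12 and no mark, and that p compares the reads of 2 libraries. Gm10814 (chromosome 19), head to head with the calpain protease gene Capn1, had 192 reads against 134 and was 1.79-fold higher (1.30 to 2.49). 9330111N05Rik had 58 against 38 and was 1.91-fold higher (1.04 to 3.60). It runs tail to tail into the span of the adhesion receptor gene Adgrv1 and shares 345 exon bases with the lincRNA Gm49375 on its own strand.

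In the other direction, Gm26679 (ENSMUSG00000097903, chromosome 14, 120384859 to 120388985) had 276 reads against 576, a 1.67-fold lower level with the high fat diet (1.36 to 2.06). It lies inside Mbnl2, the gene of a muscleblind-like splicing regulator, with 86 of its 659 exon bases opposite coding sequence. Gm26542, opposite the leukotriene C4 synthase gene Ltc4s, had 70 against 138 and was 1.58-fold lower (1.03 to 2.44). 4933416M07Rik, with 72.4% of its exon bases opposite Rab11fip1, a Rab11 effector gene, had 148 against 118 and was 1.57-fold higher (1.10 to 2.25). 9530082P21Rik, opposite the zinc finger gene Flywch1, had 266 against 240 and was 1.39-fold higher (1.08 to 1.79). Gm26679, Gm26542, 4933416M07Rik and 9530082P21Rik, and other lncRNAs below that are neither called, near the 2-fold line nor among the 10 with most reads, were picked after their values were seen.

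The counting interval excluded equal levels for 16 of the 59 antisense lncRNAs, of which 12 had the higher level with the high fat diet and 4 with the normal diet. Over the whole table this was so for 34.6% of 364 lncRNAs, 18.4% higher and 16.2% lower. Such an interval compares the reads of 2 libraries and holds no spread between animals. Here too, the values over the whole table include the antisense genes left out by name. The log2 ratios of the 59 had a median of -0.01 and quartiles of -0.26 and 0.32, with 28 above and 31 below 0. For the 364 the median was -0.01 and the quartiles were -0.35 and 0.37. Where each library held 20 reads or more, 44 of 50 antisense lncRNAs (88.0%) stayed under a 1.5-fold difference, and 73.5% of 306 did over all lncRNAs listed. Of the antisense genes left out, Gm9968, Gm15713, 4732463B04Rik and Gm26714 had 20 reads or more in each library and differed over 2-fold. Thus 88.0% does not describe all antisense lncRNAs listed. Read numbers differed too, with medians of 86 (high fat diet) and 108 (normal diet) in the group and of 24 and 30 over the whole table.

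**Figure D3:**
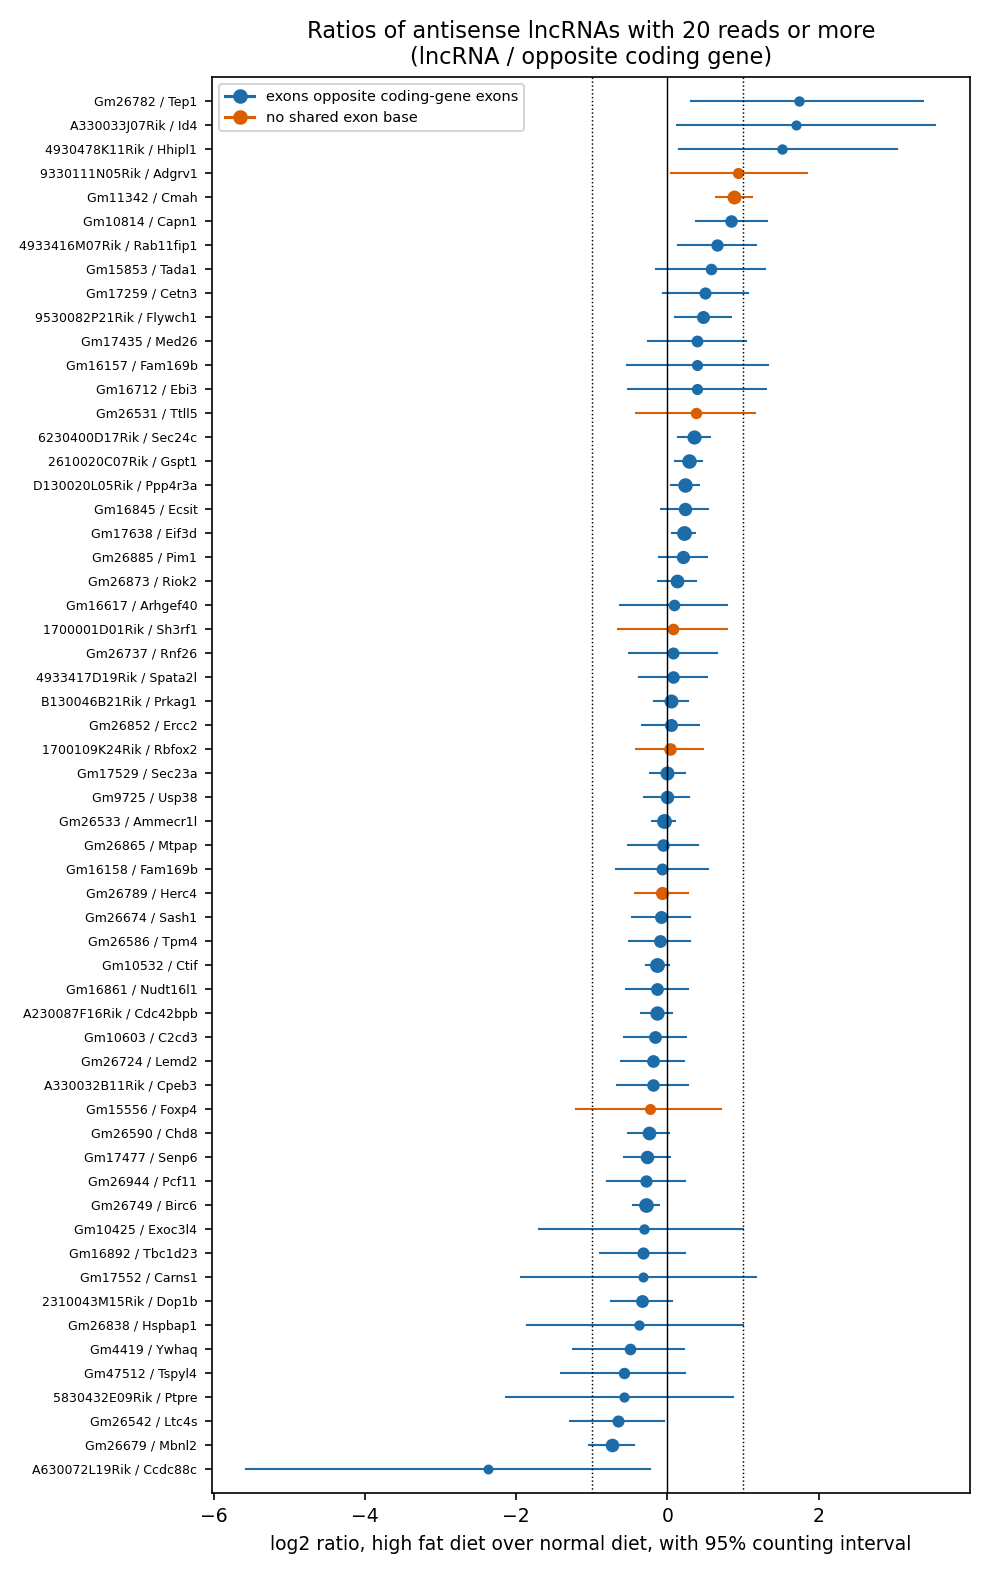
Log2 ratio of the high fat diet over the normal diet library with its 95% counting interval for 58 of the 59 antisense lncRNAs that reached 20 reads in either library, sorted by ratio, each with its opposite coding gene. Larger points have more reads, dotted lines mark 2-fold, blue marks exon overlap and orange none; the 3 points at the top and the lowest point lie beyond the dotted lines and have long intervals.

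None of the 10 members of the group with most reads was called. Calls were rarer at high read numbers over the whole table too. With 500 reads or more over both libraries, 9 of 111 lncRNAs (8.11%) were called there, and 0 of 20 in the group. The difference was not tested, and at that share 0 of 10 says little about these lncRNAs. Together they held 4.76% (4.63 to 4.90) of the table's reads with the high fat diet and 4.64% (4.53 to 4.76) with the normal diet. Their log2 ratios lay between -0.29 and 0.35. The most abundant per length was Gm26533, which runs tail to tail with Ammecr1l over 72.5% of its exon bases. It had 1262 reads against 1630, levels of 3643 and 3760 CPM per kb and a log2 ratio of -0.05 (-0.20 to 0.11).

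The others of the 10 are given with the role of the gene across from each, and the roles were not tested as groups. Gm17638, inside Eif3d, the gene of a subunit of the translation initiation factor eIF3, had 1282 reads against 1384 (log2 ratio 0.21, 0.06 to 0.37). Of its exon bases, 2151 of 4343 (49.5%) lie opposite Eif3d exons. Gm10532, inside Ctif, which encodes an initiation factor that works with the nuclear cap-binding complex, had 1212 against 1664 (-0.13, -0.29 to 0.02). 2610020C07Rik, tail to tail with Gspt1, the gene of the translation termination factor eRF3a, had 958 against 988 (0.28, 0.09 to 0.46). Each of these 3 differences is below 1.5-fold.

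6230400D17Rik, tail to tail with Sec24c, a gene of the COPII coat that buds vesicles from the endoplasmic reticulum, had 740 reads against 726 (log2 ratio 0.35, 0.14 to 0.56). Gm17529, tail to tail with Sec23a, another gene of that coat, had 572 against 716 and a log2 ratio of -0.00 (-0.23 to 0.23). Gm17529 shares near-identical stretches with 5 genes elsewhere. The interval of the first excludes equal levels and that of the second does not, and the difference between them was not tested.

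D130020L05Rik, head to head with Ppp4r3a, a regulatory subunit gene of protein phosphatase 4, had 966 reads against 1028 (log2 ratio 0.23, 0.05 to 0.42), and it shares near-identical stretches with 45 genes elsewhere. A230087F16Rik, tail to tail with the Cdc42 effector kinase gene Cdc42bpb, had 706 against 976 (-0.14, -0.35 to 0.06). B130046B21Rik, tail to tail with Prkag1, the gene of a regulatory subunit of AMP-activated protein kinase, had 594 against 718 (0.05, -0.18 to 0.28). The last of the 10, Gm26749, lies inside Birc6, the gene of a large ubiquitin-conjugating inhibitor of apoptosis, and had 928 against 1418 (-0.29, -0.46 to -0.12). Among the 10 it was the single one whose interval lay below 0, and 4 lay above.

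Levels per length differed among the arrangements. Antisense lncRNAs with exon overlap had medians of 244.7 (high fat diet) and 217 (normal diet) CPM per kb, against 67.3 and 50.7 for the 13 without. The gap depended on the overlap required: for the mean of both libraries the medians were 234 against 49.1 CPM per kb with any shared base, 234 against 94.4 with at least 50 shared bases, and 244 against 139.7 with at least 200. Tail to tail pairs had medians of 583 and 629, those inside the coding gene 516 and 521, and head to head pairs 145 and 119 CPM per kb. The ranges overlapped widely, and no test was made. Of the 63 with exon overlap, the share of exon bases opposite the coding gene and the level per length were correlated across lncRNAs with a Spearman's rho of 0.41. The points share the same libraries and lncRNAs are not independent replicates. Whether reads of the coding genes were counted for the lncRNAs was not tested.

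**Figure D4:**
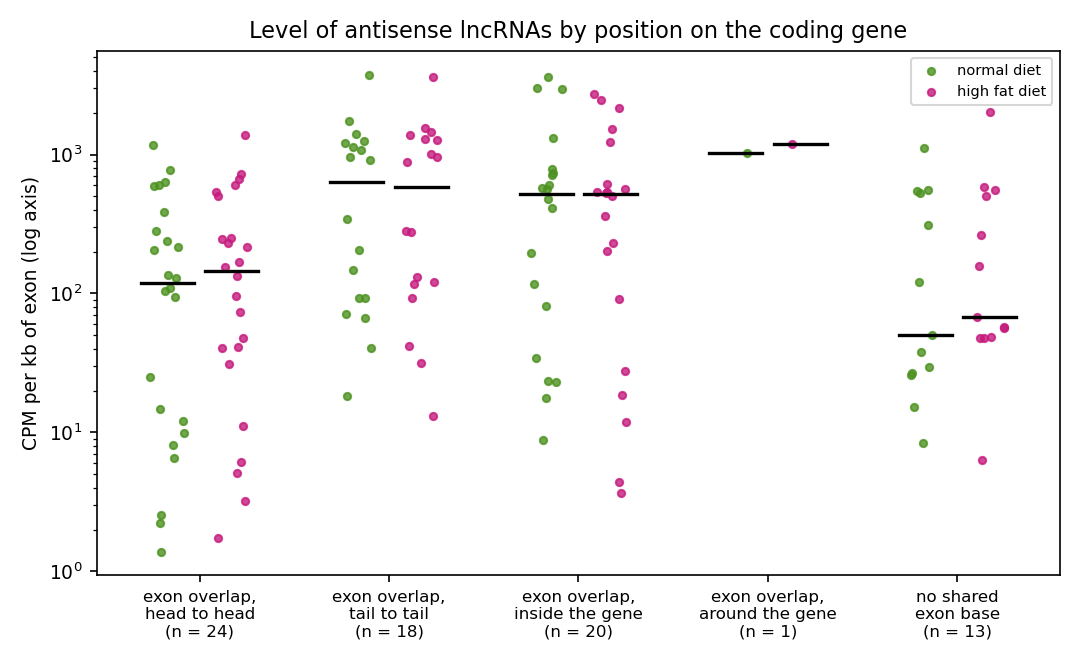
CPM per kb of exon (log axis) of each antisense lncRNA in the normal diet (green) and high fat diet (magenta) library, by its position on the opposite coding gene, with black bars for medians. Tail to tail and inside positions have medians between 516 and 629 CPM per kb, head to head between 119 and 145, and each group covers a wide range.

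**Figure D5:**
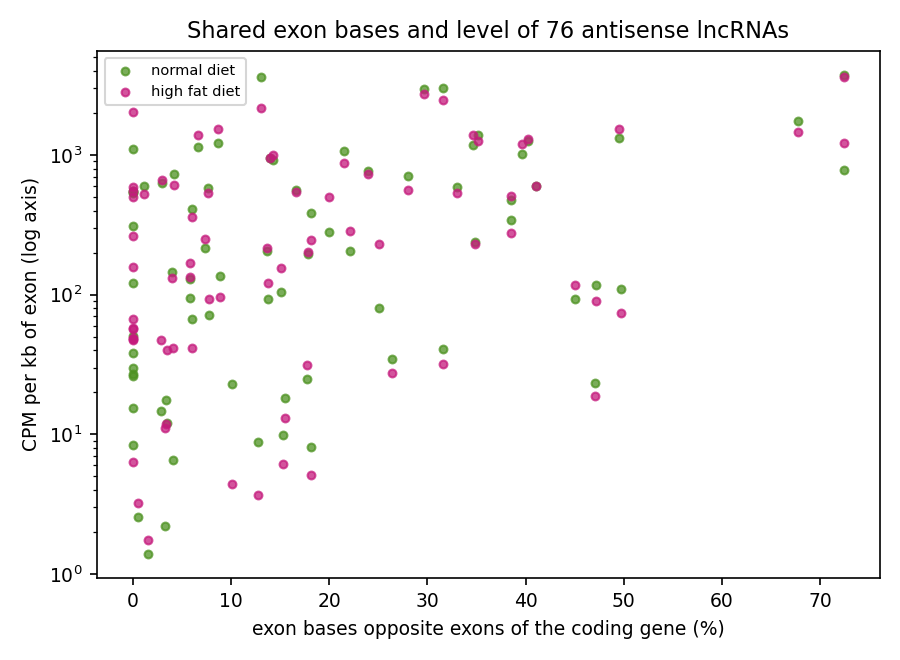
Share of exon bases opposite exons of the coding gene (x, percent) and CPM per kb of exon (y, log axis) of the 76 antisense lncRNAs in the normal diet (green) and high fat diet (magenta) library. The 3 lncRNAs with more than 50% shared exon bases lie at 781 CPM per kb or above, while lncRNAs at 0% range from 6.33 to 2033 CPM per kb.

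The log2 ratios by arrangement were close to 0 in the middle. With exon overlap, head to head lncRNAs that reached the read minimum had a median of 0.08 (10 of 17 above 0), tail to tail ones of -0.00 (7 of 15 above 0), and those inside the gene of -0.20 (5 of 19 above 0 and 14 below). Over all lncRNAs judged, 172 of 364 lay above 0. The called lncRNAs were 2 of the head to head group, Gm26782 and A330033J07Rik, and 2 of the inside group, 4930478K11Rik and A630072L19Rik. None of the 15 tail to tail lncRNAs and none of the 7 judged lncRNAs without exon overlap was called. The share called was 6.78% over the 59 judged antisense lncRNAs and 15.9% over the 364 of the whole table. With so few calls and such small groups, these counts do not tell the arrangements apart, and no test was made. Among those 7, the interval of Gm11342 and of 9330111N05Rik lay above 0.

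The group's other members with at least 300 reads in each library lie opposite genes of varied roles. Gm26873, opposite Riok2, the gene of a kinase needed to mature the small ribosomal subunit, had 490 reads against 560 (log2 ratio 0.13). Gm26590 had 67.8% of its exon bases opposite Chd8, a chromatin remodeller gene, and 398 reads against 592 (-0.25, -0.52 to 0.01). Gm17477, opposite the SUMO protease gene Senp6, had 304 against 460 (-0.27, -0.58 to 0.03). Gm9725, head to head with the deubiquitinase gene Usp38, had 332 against 418 (-0.01). Gm16845, opposite Ecsit, a gene of mitochondrial complex I assembly and innate immune signalling, had 348 against 372 (0.23). Gm26885, head to head with the proto-oncogene kinase Pim1, had 320 against 348 (0.20). All 6 intervals included equal levels, which does not show that the levels were the same. The judged lncRNAs not named here had intervals that included equal levels too.

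Among the 74 coding genes counted as opposite, Fam169b was the single one itself listed in the table. Its sense and antisense values stand side by side. Its 2 antisense lncRNAs lie opposite the same gene and are not independent. Fam169b had 84 reads with the high fat diet and 96 with the normal diet (log2 ratio 0.13, -0.50 to 0.76). Gm16158, inside the gene, had 84 against 110 (-0.07, -0.68 to 0.54), and Gm16157, at its 5' end, had 44 against 42 (0.39, -0.54 to 1.33). Per length, Gm16158 had 539.8 and 565 CPM per kb, Gm16157 had 170 and 129, and Fam169b had 61.8 and 56.4. Both antisense RNAs thus had higher values per length than the sense gene in each library. The order of the 3 was the same in both, and none of the 3 intervals excluded equal levels between the diets. Gm16157 shares 78 and Gm16158 shares 134 exon bases with Fam169b, for which reads cannot be told apart.

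In the group, 17 members did not reach 20 reads in either library and were not judged. They had 2 to 16 reads in each library and 112 and 114 reads in all. 4 of them are named as examples, picked after their values and opposite genes were seen. Irx3os, opposite the homeobox gene Irx3, had 8 reads against 2. Gm17276, opposite the receptor gene Notch3, had 8 against 14, and it shares near-identical stretches with 54 genes elsewhere. Gm17473, opposite the angiopoietin gene Angpt1, had 4 against 8, and Gm2670, inside the Wnt ligand gene Wnt5a, had 2 against 6. At this depth a difference was not detectable for these 4, and the narrowest of their log2 intervals, that of Gm17276, ran from -2.70 to 1.49.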

How the data were processed

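LncRNA levels of 2 mouse liver libraries, 1 per diet, were taken from the deposited table of known lncRNAs. The tools HISAT2, HTSeq and DESeq and the build mm8 are named, per the submitters' processing notes, while versions, roles, annotation and strand handling are not stated there. The values the authors deposited are CPM, scaled to the reads of this table. The deposited ratio of high fat to normal diet, its log2 and the p-value columns are the authors' own, and only their marks and adjusted p-values were used.

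Each CPM value was divided by the smallest of its column, which gave whole reads for 100% of the values (tolerance 1e-06). Reads other than 1 were even, so intervals used pairs of 2 reads, and a value of 1 read was taken as 0 pairs. Exact 95% intervals (Clopper-Pearson, SciPy 1.17.1) came from the binomial split of pairs between the libraries. Calls needed 2-fold and 20 reads in the higher library, and the calculation was tested on simulated data. A count test (edgeR or similar) was not run, because 1 library per diet leaves no residual degrees of freedom.

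Of 614 identifiers, 606 matched GENCODE M21 (GRCm38). Positions and sequences are from that annotation and not from mm8. Near-identical stretches were searched with BLAST+ 2.17.0. Named are all called members, the 10 with most reads, members of or opposite genes in 8 lists, and the 3 nearest to the 2-fold line on each side. Members and lists were chosen with earlier results of these data known. A deposited table of numbered lncRNAs without gene types was not used. The values of 1 antisense lncRNA are not reported here by name, and it is counted in the totals.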

Additional observations from a re-analysis of the deposited data

How the results depend on the processing

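With 3 antisense lncRNAs higher and 1 lower, the 4 calls became 9 without a read minimum (7 higher, 2 lower) and 11 at 1.5-fold (7 and 4). They became 1 at 4-fold (A630072L19Rik), 0 with a minimum of 100 reads, and 2 when the deposited adjusted p had to be 0.05 or less as well (Gm26782 and A630072L19Rik). Without lncRNAs that share bases with coding exons, 0 of the remaining 13 were called, of which only 7 reached 20 reads in either library. All these settings alter, by construction, the set that can be called. Median-ratio scaling, a pseudocount of 1 CPM or of 5 reads, and requiring an interval that excludes equal levels each gave 4 calls, 3 higher and 1 lower. Leaving out lncRNAs with near-identical stretches elsewhere, chosen after the data were seen, gave 3. The level per length relative to other known lncRNAs, 3.11, became 1.66 with a minimum of 20 reads. It was 3.05 with the longest transcript as length and 3.06 against lincRNAs alone. Of 51 alternatives over 17 named lncRNAs, 51 left the log2 ratio within its counting interval and 0 reversed a call. These were median-ratio scaling, a shift of 0.05 log2, and pseudocounts of 1 and 5 reads. Beside the wide intervals of the called lncRNAs such changes are a weak check, and reversal was counted only for called lncRNAs. Exon overlap of at least 50 and 200 bases was met by 60 and 45 lncRNAs, against 63 with any shared base. No paired analysis was possible because the study has a single library for either diet, and leave-one-out runs could not be made. Depth limits 17 of 76 antisense lncRNAs, which stayed below 20 reads.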

Other observations

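Of the 17 antisense lncRNAs below the read minimum, 3 had ratios over 3-fold toward the high fat diet library, all with intervals that included equal levels. They were picked after their values were seen. Gm26600, at the 5' end of the cell adhesion gene Bcam, had 10 reads against 2 (log2 ratio 2.65, 95% interval -0.51 to 8.21). It shares near-identical stretches with 14 genes elsewhere. Irx3os had 8 against 2 (2.32, -1.01 to 7.95). Gm14225 had 6 against 2 (1.91, -1.73 to 7.62), while Gm14224, inside the same cytoskeletal gene Epb41l1, had 8 reads in each library (0.32, -2.10 to 2.75).

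Some members share exon bases with other non-coding genes, which limits what their reads can be assigned to. Gm26885 shares 2302 bases with a lincRNA on the opposite strand, and Gm17552, which had 14 reads against 22, shares 1332 bases with a processed transcript on the opposite strand. 4933417D19Rik shares 567 bases with the antisense gene Gm45842 on its own strand, and had 158 reads against 188 (log2 ratio 0.07, -0.38 to 0.52). Gm47512, with 42 against 78 (-0.57, -1.41 to 0.23), lies head to head with Tspyl4 and has the longest unbroken stretch opposite coding sequence in the group outside chromosome 18, 1218 bases.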
